A study of Mus musculus with 12 samples.

Results

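The Hes and Hey genes described here were 7 transcriptional repressors, Hes1, Hes5, Hes6, Hes7, Hey1, Hey2 and Heyl, taken by name from the 55413 genes of the GENCODE M21 basic annotation of mm10, of which 21938 are protein-coding. Each of the 7 has 1 annotated transcript start in that set. They were examined in C2C12, a line of mouse myoblasts that leave the cell cycle and fuse into multinucleated myotubes in low serum. The assay was CUT&RUN, which uses an antibody to tether a nuclease to chromatin so that the cut fragments can be sequenced. The groups used were undifferentiated day 0 cells, cells on day 1 of differentiation in medium with horse serum, myotubes of day 5, and reserve cells of the same day, which had not fused and which mild trypsin separated from the myotubes. All 4 groups are the same line with no genetic change or drug named in the labels, and a cell line lacks the niche in which muscle stem cells live. For each group 1 library was made with an antibody to H3K4me3, a histone mark of active and poised promoters, and 1 with an antibody to MBD2, which binds methylated CpG and belongs to the NuRD complex. No difference between libraries therefore has a replicate check, and no test was made.

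Hes and Hey proteins are basic helix-loop-helix factors with an Orange domain that repress transcription. When a Delta or Jagged ligand on one cell engages a Notch receptor on the next, the receptor's intracellular domain is cut free, joins RBPJ and Mastermind on DNA, and activates Hes and Hey genes. Hes proteins then recruit Groucho/TLE co-repressors to their targets. In mouse muscle this pathway holds satellite cells, the resident stem cells, in an undifferentiated state and opposes MyoD. Hes6 is an exception, since it antagonises Hes1 and is not a typical Notch target.

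Sequences upstream of the genes are shown first because the presence of peaks is set against them below. Promoter sequences came from the RefSeq promoter table (GRCm38.p6), in which 4 of the 7 genes matched with 5 entries, and the window searched was the 250 bases before the RefSeq start. Hes1, Hey1 and Heyl had no entry and were not searched. Capitals mark TGGGAA, the core of the RBPJ site, or its reverse complement TTCCCA. For Hes5, which alone had no promoter peak, the 30 bases around each match are shown, at chr4:154960685-154960714 and chr4:154960829-154960858 on the plus strand. The Hes6 window is shown because Hes6 alone had MBD2 at its promoter, and the Hey2 window because Hey2 was marked with a narrow peak. Those windows lie at chr1:91413223-91413472 and chr10:30842802-30843033, both on the minus strand, and that of Hey2 is shortened to the 232 bases before the GENCODE start.
Hes5 match 1: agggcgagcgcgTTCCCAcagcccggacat
Hes5 match 2: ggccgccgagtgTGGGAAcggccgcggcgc
Hes6 promoter: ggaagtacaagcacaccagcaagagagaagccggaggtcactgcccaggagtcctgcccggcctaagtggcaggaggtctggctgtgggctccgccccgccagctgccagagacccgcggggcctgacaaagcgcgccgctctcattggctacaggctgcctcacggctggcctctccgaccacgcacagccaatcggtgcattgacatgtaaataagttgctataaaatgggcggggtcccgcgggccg
Hey2 promoter: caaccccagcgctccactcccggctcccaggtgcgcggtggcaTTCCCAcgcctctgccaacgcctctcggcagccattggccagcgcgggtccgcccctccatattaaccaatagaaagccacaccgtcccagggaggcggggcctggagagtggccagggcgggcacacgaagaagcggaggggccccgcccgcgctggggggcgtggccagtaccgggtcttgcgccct

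TGGGAA was found 2 times in the Hes5 window, at bases 226 to 221 before the start on the opposite strand and at bases 82 to 77 on the gene's own strand. Hes7 had 1 match, at bases 180 to 175 on the opposite strand, and Hey2 had 1, at bases 207 to 202 on the opposite strand. Neither Hes6 window held it. Of the 32817 promoters of the table, 21.6% held at least 1 TGGGAA on either strand and 2.77% held at least 2. CACGTG, the class B E-box that Hes and Hey proteins can bind, was in none of the 5 windows, against 6.02% of the table. The N-box CACNAG was present once in the first Hes6 window and once in the Hes7 window, against 36.7% of the table, and the E-box CANNTG, which reads the same on both strands and includes CACGTG, was in all 5 windows, against 66.2%.

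The Hes5 window was also the richest in CpG of the 5, with 32 CpG in 250 bases and an observed over expected ratio of 1.00, at the 94.2nd percentile of the table. Hey2 had 22 CpG and a ratio of 0.687. Hes6 had 17 CpG and a ratio of 0.664 at its GENCODE start, and 12 CpG with a ratio of 0.508 at a second RefSeq start 816 bp further upstream. Hes7 had 10 CpG and a ratio of 0.41. The median over the table was 6 CpG and a ratio of 0.373, so every matched member lay above the median on both measures.

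H3K4me3 was present at 6 of the 7 promoters in every library, and the same 6 genes were marked throughout. A promoter here is the 1 kb either side of the transcript start, and a gene was marked when a peak overlapped it by at least 1 bp. The share of protein-coding genes marked was 56.5% on day 0, 56.2% on day 1, 57.3% in myotubes and 54.8% in reserve cells, and over all annotated genes it was 28.6%, 28.2%, 29.2% and 27.2% in the same order. No member gained or lost a promoter H3K4me3 peak in any of the 4 comparisons, day 1 against day 0, myotubes against day 0, reserve cells against day 0 and myotubes against reserve cells. Of the protein-coding genes that could gain one, 1.72%, 5.33%, 1.38% and 7.09% did so in those comparisons, and of those that could lose one, 1.86%, 2.77%, 4.12% and 1.32% did. With 7 members, a count of 0 is what these shares would usually give. The first 3 comparisons share the day 0 library.

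The peak lists differed in length and strength between libraries. They held 19218, 17665, 26034 and 15920 H3K4me3 peaks on day 0, day 1, in the myotubes and in the reserve cells, with a median length of 1936, 1869, 1217 and 1729 bp and a median fold enrichment of 29.0, 38.6, 9.55 and 39.8. The labels and lists state no read totals, so ranks within a list are used below where strength is compared. All 4 myoblast markers were marked in every library, and 0, 6, 6 and 5 of 6 myotube markers were marked in that order, with a median covered length of 0, 3221, 7270.5 and 2185.5 bp. The reserve cell library thus carried H3K4me3 at most myotube markers, and what part unseparated myotubes had in this was not tested. Of the satellite and reserve cell markers, 3, 3, 2 and 3 of 3 were marked, and of the blood markers none of 4 in any library. Of 5 neural markers, 2, 2, 2 and 1 were marked, and of 3 adipocyte markers 1 in each library. Of 3 endothelial markers 1 was marked, on day 1 alone, and of 3 epithelial markers 1, in myotubes alone.

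**Figure D1:**
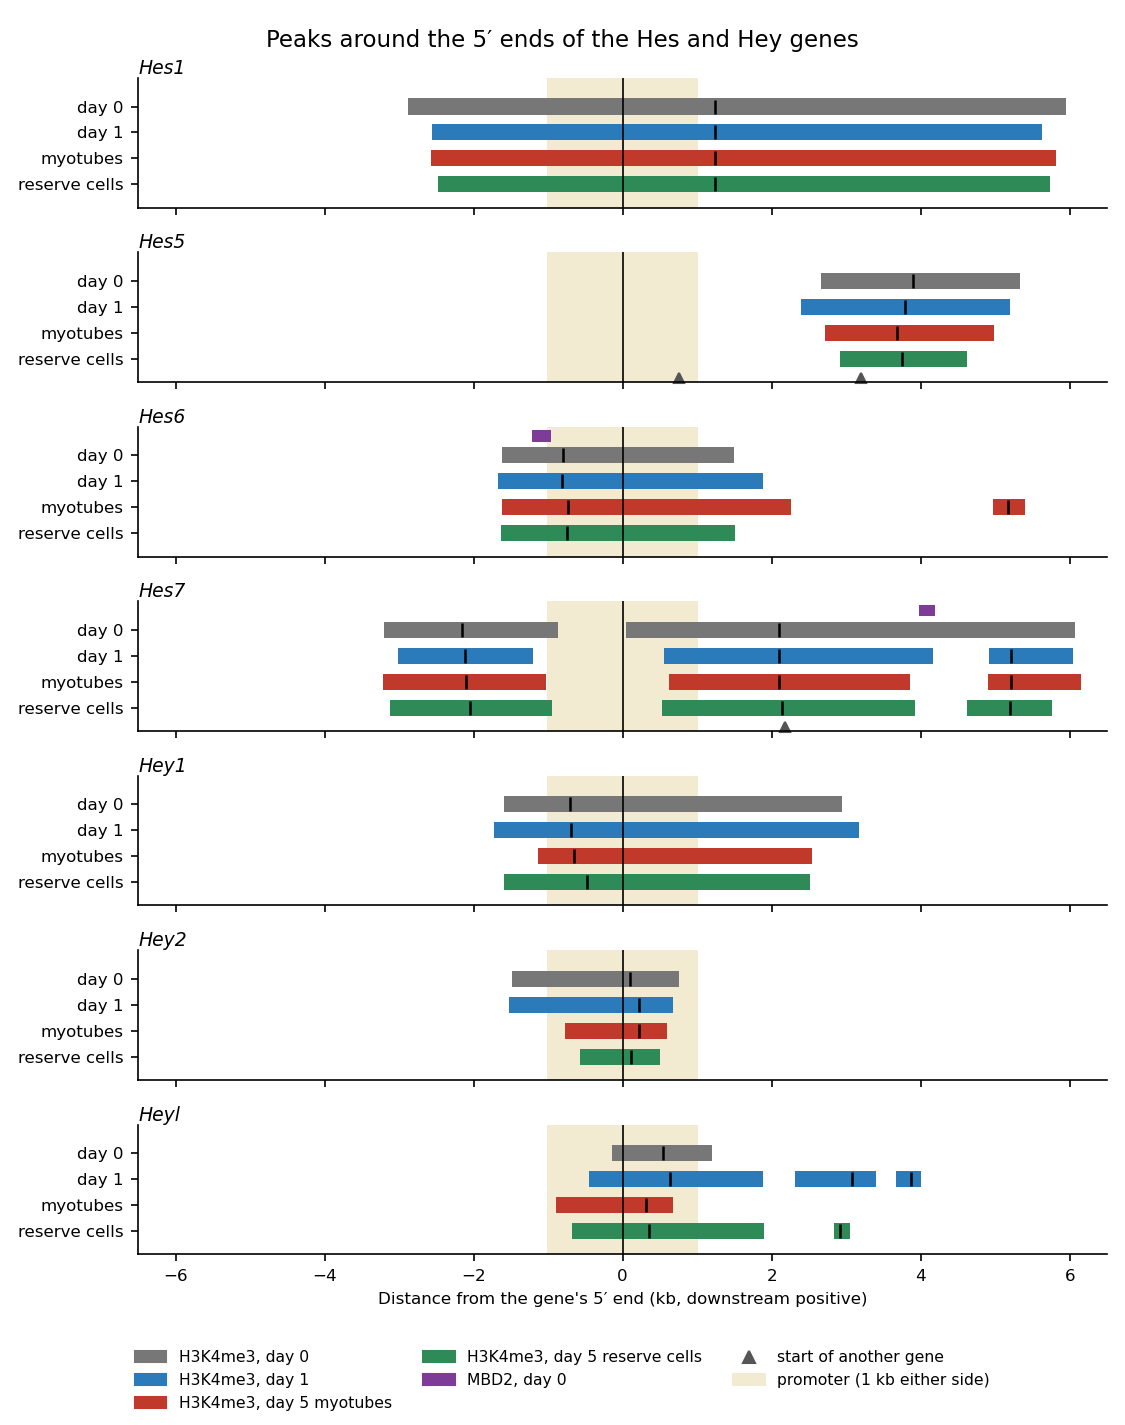
Peaks around the 5′ ends of the 7 genes, with distance from the 5′ end in kb on the horizontal axis and 1 row per library. Bars are H3K4me3 peaks with the summit as a tick, purple bars are day 0 MBD2 peaks, triangles are starts of other genes within 5 kb, and the shaded band is the promoter. Hes5 has no bar in the band, and the GENCODE start of Hes7 lies in a gap between peaks in all 4 libraries.

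The members differed in width, and the ranges of several overlapped across the libraries. Breadth means here the bases under H3K4me3 peaks in the 5 kb on each side of the 5′ end, and its rank is given among marked protein-coding genes of the same library. Over the 6 marked members the median breadth was 3829 bp on day 0, 4335 bp on day 1, 3789 bp in the myotubes and 3624 bp in the reserve cells. With Hes5, whose covered bases belong to a neighbour's peak, it was 3117, 3770, 3677 and 3149 bp. Over the marked protein-coding genes it was 2832, 2556, 2539 and 2234.5 bp in the same order.

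Hes1, the widely expressed Notch effector whose protein and RNA oscillate in many mouse progenitors, lay under 1 unbroken H3K4me3 domain in each library. The domain was 8828 bp long on day 0, 8179 bp on day 1, 8379 bp in the myotubes and 8214 bp in the reserve cells. It began 2875, 2556, 2566 and 2476 bp upstream of the start and ended 5952, 5622, 5812 and 5737 bp downstream of it, past the end of the gene, which GENCODE places at chr16:30065340-30067796. Both edges shifted little beside its length. Breadth was 7876, 7557, 7567 and 7477 bp, at the 99.3rd, 99.4th, 99.0th and 99.7th percentile, the broadest of the 7 in every library. The summit stood 1237 bp downstream of the start on day 0 and 1243 bp downstream in the other 3 libraries, and the fold enrichment of 55.4, 89.1, 60.7 and 67.5 ranked at the 79.5th, 94.0th, 97.8th and 82.9th percentile of its list. RefSeq predicts a non-coding gene, Gm32998, on the opposite strand downstream of Hes1, at chr16:30067863-30070438, and the domain covered all of it.

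Hes7, a core gene of the segmentation clock in the mouse presomitic mesoderm, which starts at chr11:69120404, had the next broadest coverage. Its GENCODE start base was covered in no library. The main peak began 45 bp downstream of the start on day 0, and 551, 626 and 530 bp downstream on day 1, in the myotubes and in the reserve cells. Its summit lay 2103 bp downstream of the Hes7 start on day 0, on day 1 and in myotubes and 2137 bp downstream in reserve cells, which is 82, 82, 82 and 48 bp into 9130213A22Rik, a gene read from the opposite strand whose start lies 2185 bp downstream of that of Hes7. A separate upstream peak, with its summit 2151, 2111, 2097 and 2050 bp before the start, reached into the promoter by 132 bp on day 0 and by 52 bp in reserve cells, and did not reach it on day 1 or in myotubes. RefSeq places a Hes7 start 49 bp downstream of the GENCODE start, inside the main peak on day 0 alone. It also predicts a Hes7 start 1498 bp upstream, under the separate upstream peak in every library. Neither was used for the calls. Assignment of the mark to Hes7 is therefore uncertain and depends on the start chosen. The calls around the GENCODE start rest on the flanks of peaks centred elsewhere. With a promoter of 500 bp either side, Hes7 was marked on day 0 alone.

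On day 0 the downstream Hes7 peak was 6026 bp long and ran on to the start region of the next gene, Aloxe3, an epidermal lipoxygenase gene. The corresponding peak was 3615 bp on day 1, 3232 bp in the myotubes and 3400 bp in the reserve cells, and in those libraries a second peak of 1124, 1250 and 1142 bp stood near Aloxe3. Breadth, which counts all of these bases within the window, was 7288, 5509, 5533 and 5954 bp, at the 98.9th, 95.7th, 93.2nd and 98.4th percentile. The fold enrichment of the main peak was 101.5, 82.8, 74.6 and 114, at the 99.2nd, 91.0th, 99.6th and 99.5th percentile of its list. RefSeq places 5 tRNA genes within 5 kb of the Hes7 start, 1 upstream under the separate peak and 4 downstream, so several promoters of other genes share this window.

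Hey1, which with Heyl is needed to keep satellite cells undifferentiated in mouse muscle, had a single peak over its start at chr3:8667256. The peak and the breadth were 4541 bp on day 0, 4900 bp on day 1, 3677 bp in the myotubes and 4099 bp in the reserve cells, at the 85.9th, 92.1st, 74.6th and 91.0th percentile. The myotube peak reached 1131 bp upstream of the start, against 1586 bp in reserve cells and 1597 bp on day 0, while the downstream edges in the 2 day 5 libraries stood at 2545 and 2512 bp. RefSeq predicts a gene on the same strand, LOC115489673, at chr3:8666924-8669688, which overlaps the Hey1 start. Its own start, 2432 bp upstream, lay outside the peak in every library. The summit of the Hey1 peak stood 713, 697, 652 and 482 bp upstream of the Hey1 start, within that predicted gene. Fold enrichment was 91.8, 74.5, 36.4 and 45.1, at the 98.2nd, 85.6th, 78.7th and 56.1st percentile of its list. Its rank by fold was thus highest on day 0 and lowest in reserve cells, whereas its rank by breadth was lowest in myotubes.

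Hes6, which promotes differentiation in several mouse lineages including muscle and starts at chr1:91413222, carried a promoter peak of 3117 bp on day 0, 3563 bp on day 1, 3873 bp in the myotubes and 3149 bp in the reserve cells. The upstream edge was nearly fixed, at 1622, 1677, 1619 and 1638 bp before the start, and the downstream edge stood at 1494, 1885, 2253 and 1510 bp. The extra width in myotubes was therefore within and past the gene body. The summit stood 804, 816, 737 and 746 bp upstream of the GENCODE start, near the second RefSeq start 816 bp upstream. Breadth was 3117, 3563, 3901 and 3149 bp, at the 58.6th, 76.8th, 78.0th and 78.1st percentile. In bases Hes6 was broadest in myotubes, and in rank the day 0 library was lowest and the other 3 lay close together. Its fold enrichment of 65.0, 87.5, 27.2 and 60.5 ranked at the 88.2nd, 93.3rd, 68.0th and 75.3rd percentile of its list. The local background was 2.12, 1.27, 3.52 and 1.08 fragments. The lowest fold and rank, in myotubes, thus came with the highest background of the 4, whose part in them was not tested.

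Hey2, best known from heart and vessel development, had a peak centred on its start at chr10:30842801. The peak was 2244 bp on day 0, 2209 bp on day 1, 1375 bp in the myotubes and 1079 bp in the reserve cells, at the 30.5th, 37.8th, 15.1st and 10.2nd percentile of breadth. Most of the difference in width lay upstream, where the edge stood 1489, 1531, 776 and 578 bp before the start, against 754, 677, 598 and 500 bp after it. Fold enrichment was 30.7, 32.1, 8.85 and 15.8, at the 51.8th, 45.6th, 48.3rd and 31.7th percentile of its list. Both day 5 libraries thus had a narrower Hey2 peak than either earlier library. The local background at Hey2 was 1.47, 1.27, 3.52 and 1.08 fragments in the same order, and the lowest of the myotube list was 1.22. What part the higher background had in the myotube fold and width was not tested.

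Heyl, the third Hey gene, whose start is at chr4:123233556, had the most variable coverage of the 6. Its promoter peak was 1346 bp on day 0, 2338 bp on day 1, 1570 bp in the myotubes and 2577 bp in the reserve cells. On day 1 further peaks of 1097 and 335 bp lay downstream, with summits 3078 and 3876 bp from the start, and in reserve cells there was 1 of 214 bp, with its summit at 2923 bp. These downstream peaks were weak, with 11, 11 and 6 fragments at the summit. Their folds of 5.28, 5.32 and 3.36 ranked at the 14.1st, 15.0th and 1.22nd percentile of their lists. Breadth was 1346, 3770, 1570 and 2791 bp, at the 10.1st, 80.7th, 19.9th and 69.0th percentile. Day 1 and reserve cells were therefore above the median marked gene, and day 0 and myotubes were below it. On day 1 this rests on the weak downstream peaks, since the promoter peak alone, 2338 bp, was below the median of 2556 bp.

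The day 0 peak of Heyl had the lowest fold enrichment of any main promoter peak of the 6 marked members in these libraries, 5.73, at the 18.7th percentile of its list. In the later libraries the fold was 25.3, 15.7 and 28.8, at the 40.9th, 57.3rd and 40.8th percentile. The pileup at the summit was 25, 56, 34 and 59 fragments over a local background of 3.54, 1.25, 1.22 and 1.08. The day 0 background was above the lowest of its own list, 1.47, and the part of this difference in the low day 0 fold and length was not tested. Of 3 fibroblast markers, 2, 3, 2 and 3 were marked. Dcn had 0, 2006, 0 and 600 bp and Col1a1 had 3145, 3714, 2381 and 3435 bp, both highest on day 1 and in reserve cells, while Pdgfra, with 4513, 4464, 2098 and 3568 bp, was highest on day 0. Their part in the Heyl values was not tested.

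**Figure D2:**
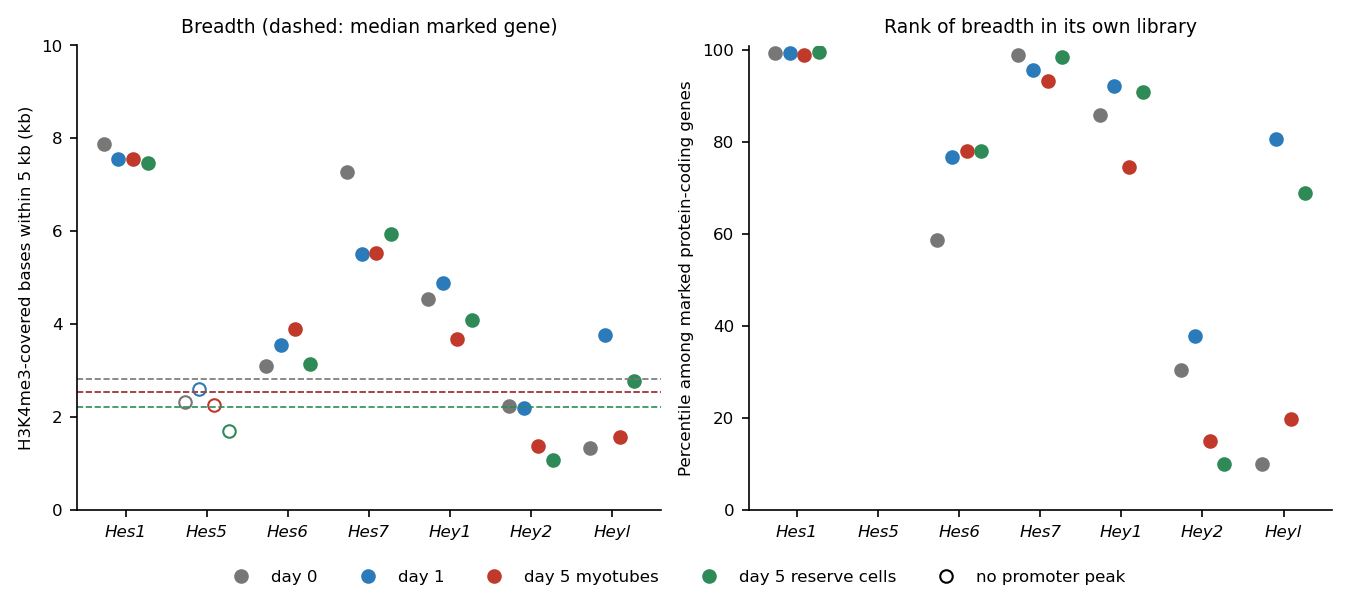
H3K4me3 breadth of each gene in kb within 5 kb of the 5′ end (left) and its percentile among marked protein-coding genes of the same library (right), with 1 point per library. Dashed lines are the median marked protein-coding gene, and open circles are Hes5, whose covered bases belong to a neighbour's peak. Hes1 stays between 7477 and 7876 bp, while Heyl moves between the 10.1st and the 80.7th percentile.

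Hes5, a Notch effector best known from the mouse nervous system, had no H3K4me3 peak at its promoter in any library. Its upstream window, described above, holds 2 TGGGAA and the most CpG of the windows examined, which do not include Hes1, Hey1 or Heyl. The nearest peak began 2659, 2388, 2712 and 2911 bp downstream of its start. It was 2678 bp long on day 0, 2811 bp on day 1, 2266 bp in the myotubes and 1707 bp in the reserve cells, and its summit lay 691, 574, 475 and 537 bp into Pank4, a pantothenate kinase family gene read in the same direction that starts 3200 bp downstream of Hes5. The 2342, 2613, 2266 and 1707 bases covered within 5 kb of the Hes5 start all belong to that peak. A second neighbour, Gm20421, whose start lies 755 bp downstream on the opposite strand, was not marked in any library. The Hes5 gene itself, at chr4:154960923-154962371, thus held no called H3K4me3 in these 4 lists.

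Between libraries, the breadth of the 6 marked members was set beside that of all protein-coding genes marked in both. A gene was counted as broader or narrower when its breadth differed by at least 1.5-fold, a limit chosen for description.

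On day 1, 1 of the 6 marked members was broader than on day 0, against 0.962% of protein-coding genes, and none was narrower, against 4.81%. The broader one was Heyl, with 3770 bp on day 1 and 1346 bp on day 0, a ratio of 2.80 at the 99.9th percentile of all ratios. The promoter peak of Heyl alone gave 1.74. Hes6 had a ratio of 1.14, at the 95.3rd percentile, and Hey1 1.08, at the 91.9th. Hes7 had the lowest ratio of the 6, 0.756, at the 11.7th percentile. The long day 0 peak of Hes7 appeared as 2 peaks in each of the 3 later libraries. Hes1 and Hey2 had ratios of 0.959 and 0.984. The median protein-coding gene had 0.907, below 5 of the 6 members.

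In myotubes, none of the 6 was broader than on day 0, against 6.2% of protein-coding genes, and 1 was narrower, against 12.9%. That one was Hey2, with 1375 bp in myotubes and 2244 bp on day 0, a ratio of 0.613 at the 9.18th percentile. Hes6, with 3901 bp in myotubes and 3117 bp on day 0, had the highest ratio of the 6, 1.25, at the 88.4th percentile. Heyl had 1.17, Hes1 0.961, Hey1 0.810 and Hes7 0.759, against 0.898 for the median protein-coding gene. Read against these shares, the myotube counts do not set the members apart from other genes.

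In reserve cells, 1 of the 6 was broader than on day 0, against 0.678% of protein-coding genes, and 1 was narrower, against 19%. Heyl, with 2791 bp in reserve cells and 1346 bp on day 0, had a ratio of 2.07 at the 99.8th percentile. Hey2, with 1079 bp in reserve cells and 2244 bp on day 0, had a ratio of 0.481 at the 3.77th percentile. Hes6 kept nearly the same breadth, a ratio of 1.01, which ranked at the 94.8th percentile because most genes were narrower. Hes1 had 0.949, Hey1 0.903 and Hes7 0.817, against 0.788 for the median protein-coding gene.

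In myotubes against reserve cells, none of the 6 was broader, against 15.4% of protein-coding genes, and 1 was narrower, against 2.66%. Heyl, with 1570 bp in the myotubes and 2791 bp in the reserve cells, had a ratio of 0.563 at the 1.54th percentile. Hey1 had 0.897 and Hes7 0.929, at the 11.7th and 15.1st percentile. Hey2 had 1.27 and Hes6 1.24, at the 69.6th and 65.6th percentile, and Hes1 had 1.01. The median protein-coding gene had 1.13. Within 10 kb of the 5′ end, Heyl had 2371 bp in the myotubes and 3196 bp in the reserve cells, a ratio of 0.742, so the 1 narrower call did not hold in that window. Over genes marked in either library, the median differences of the 4 comparisons, in the order given, were -250, -255, -587 and 299 bp.

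**Figure D3:**
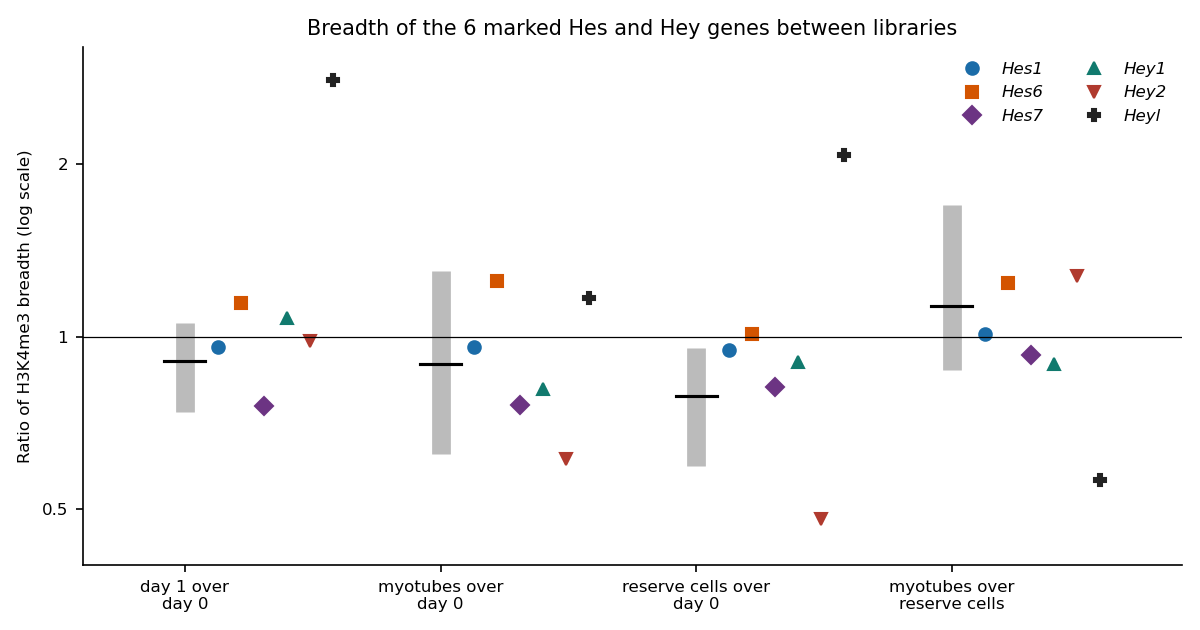
Ratio of H3K4me3 breadth between libraries on a log axis for the 6 marked genes, in the 4 comparisons. Grey bars span the 10th to 90th percentile of protein-coding genes marked in both libraries and black lines are their median. Heyl stands above the bar on day 1 and in reserve cells, both over day 0, and below it in myotubes over reserve cells. Hes6 also stands above it on day 1 and in reserve cells over day 0, and Hey1 on day 1. Hey2 stands below it in myotubes and in reserve cells over day 0.

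MBD2 was called at 1 of the 7 promoters on day 0, that of Hes6, against 11.1% of protein-coding genes and 6.36% of all genes. No member had a promoter MBD2 peak on day 1, in myotubes or in reserve cells, when 0.998%, 0.62% and 0.251% of protein-coding genes did. The MBD2 lists held 14948, 452, 288 and 111 peaks in that order, and 91.6%, 96.1% and 98.2% of the protein-coding genes with a day 0 promoter peak had none in the 3 later libraries, so the absence at Hes6 is that of nearly every gene. The lowest local background of the lists was 0.360, 0.286, 0.776 and 0.947 fragments. What part depth had in the lengths of the lists was not tested.

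The Hes6 MBD2 peak lay at chr1:91414181-91414439, 959 to 1217 bp upstream of the GENCODE start, and overlapped the promoter by 42 bp. It was 259 bp long, with 6 fragments at its summit, a fold enrichment of 5.15 at the 36.5th percentile of the day 0 list, and a −log10 q of 3.83. All 259 of its bases lay inside the day 0 H3K4me3 peak, and 82.9% of day 0 MBD2 promoter peaks overlapped H3K4me3. It is a low and short peak, and it was no promoter call with 500 bp either side of the GENCODE start or with a −log10 q of at least 5. It lay closer to a second RefSeq start of Hes6, at chr1:91414038, 816 bp upstream of the GENCODE start, which was not used for the main calls. Its overlap with the promoter thus depends on the start chosen. Its sequence is shown on the gene's strand, with each CpG in capitals, because its CpG content sets it apart from most MBD2 peaks, and beside it the only other MBD2 peak within 5 kb of a member, at chr11:69124386-69124594 on the plus strand.
Hes6 MBD2 peak: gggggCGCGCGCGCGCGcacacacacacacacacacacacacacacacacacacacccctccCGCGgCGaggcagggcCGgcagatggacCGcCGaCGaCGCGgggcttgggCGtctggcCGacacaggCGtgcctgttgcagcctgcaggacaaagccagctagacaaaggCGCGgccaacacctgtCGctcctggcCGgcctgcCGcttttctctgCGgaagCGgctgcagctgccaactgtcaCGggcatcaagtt
Hes7 MBD2 peak: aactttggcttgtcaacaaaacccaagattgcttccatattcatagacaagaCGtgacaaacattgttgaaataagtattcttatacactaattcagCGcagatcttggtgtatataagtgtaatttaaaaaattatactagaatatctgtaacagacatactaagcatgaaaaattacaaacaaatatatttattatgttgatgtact

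The Hes6 peak held 26 CpG, 10.04 per 100 bp, at the 98.8th percentile of day 0 MBD2 peaks, whose median was 1.24. Day 0 MBD2 peaks at promoters had a median of 4.05 CpG per 100 bp and those elsewhere 1.06. Its GC content was 68.0%, against a median of 46.2% over the list. The run of alternating CG and CA near its 5′ end is a simple repeat. Whether these CpG are methylated was not measured.

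The peak downstream of Hes7 was of the opposite kind. It lay 3982 to 4190 bp downstream of the Hes7 start, outside the promoter and past the end of the gene, between the tRNA genes n-TLtag3 and n-TQctg6. It was 209 bp long with 7 fragments at its summit and a fold enrichment of 5.74, held 2 CpG or 0.957 per 100 bp, at the 37.6th percentile, and had a GC content of 28.2%. All 209 bases lay under the day 0 H3K4me3 peak, in a stretch that H3K4me3 peaks covered in part on day 1 and not at all in either day 5 library. For the other 5 genes the nearest day 0 MBD2 peak was 21939 bp from the Hes1 start, 76002 bp from Hey2, 77836 bp from Hey1, 165856 bp from Hes5 and 189127 bp from Heyl.

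Among 19818 other named protein-coding genes, those with the breadth most like a member's were ranked by the sum of absolute differences over the 4 libraries. Nearest to Hes1 were Irf2bp2, Tns2 and Brd2, with sums of 450, 582 and 754 bp. Nearest to Heyl were the growth factor receptor gene Fgfr4, the iron exporter gene Slc40a1 and Lss, with sums of 1106, 1185 and 1726 bp, above those of every other member but Hes7. Fgfr4 had 1213, 3356, 1450 and 2352 bp on day 0, day 1, in the myotubes and in the reserve cells. Hes6 was nearest to Tmem248, Plxnb1 and Mical1 (313 to 378 bp), Hey1 to Creb3l1, Gemin2 and Sec23a (376 to 523 bp), and Hey2 to Rabggta, Map2k6 and Ptgr1 (300 to 470 bp). For Hes7 they were Fhod1, Slc9a5 and Pdpn (1319 to 1384 bp), and for the Pank4 peak beside Hes5 they were Nupl2, Man2a2 and Scap (250 to 322 bp). Gemin2 and Sec23a share their values, as do Fhod1 and Slc9a5.

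Of 34 Notch pathway genes, which encode the ligands, receptors, proteases and co-factors that act before the Hes and Hey genes, 29 carried promoter H3K4me3 in all 4 libraries and none gained or lost it. Among protein-coding genes, 54.8% to 57.3% carried promoter H3K4me3 across the libraries, and 11.1% had promoter MBD2 on day 0. The lists below are read beside the same shares. Over all 34, unmarked genes included, the median breadth was 3133.5, 3176.5, 2877.5 and 2683.5 bp. Rbpj counts as 0 there although its promoter was marked, since breadth is taken around the 5′ end alone. Dll1, a Notch ligand, had the largest difference between myotubes and day 0, with 2563 bp on day 0, 5931 bp on day 1, 6411 bp in the myotubes and 6230 bp in the reserve cells. Pofut1, which adds the fucose that Notch receptors need, had 3980, 3598, 5996 and 3062 bp. MBD2 was called at 5 of the 34 on day 0 and at none later, and the highest folds were at Numb, a Notch inhibitor, with 15.1, and Maml1, a Mastermind co-activator, with 8.82.

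Of 5 further bHLH-Orange genes, none had promoter MBD2, Bhlhe40 and Bhlhe41 were marked in every library, and Hes2 gained a peak in myotubes alone, of 457 bp. Bhlhe40 had 6916, 6826, 7580 and 7086 bp. Of 6 Groucho/TLE co-repressor genes, 5 were marked in every library, and the median breadth over all 6 was 4091, 3398.5, 4061 and 2947 bp. Tle4 was the only one with MBD2, at a fold of 22.9 on day 0, 5.97 on day 1 and 5.36 in myotubes and with no peak in reserve cells, so its promoter peak was called where that of Hes6 was not. Aes had 4301, 3500, 6313 and 3053 bp, and Tle1 had 5309, 5033, 4111 and 4331 bp.

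The myogenic bHLH factors that Hes and Hey proteins oppose, with their E-protein and Id partners, were marked at 9 of 10 promoters on day 0 and at 10 of 10 in each later library, with a median breadth of 5501, 5152, 5319 and 4646 bp. The gain was Myog, myogenin, with 0, 2673, 5316 and 2364 bp. Myf5, an early myogenic factor, had 8767, 8213, 5182 and 5605 bp, narrower in both day 5 libraries as Hey2 was. MBD2 was called at 5 of the 10 on day 0, against 11.1% of protein-coding genes. Tcf3, an E-protein gene, kept a promoter MBD2 peak in all 4 libraries, with folds of 16.2, 8.55, 6.63 and 7.71, and the day 0 fold at Id2, an inhibitor of bHLH dimers, was 8.09.

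**Figure D4:**
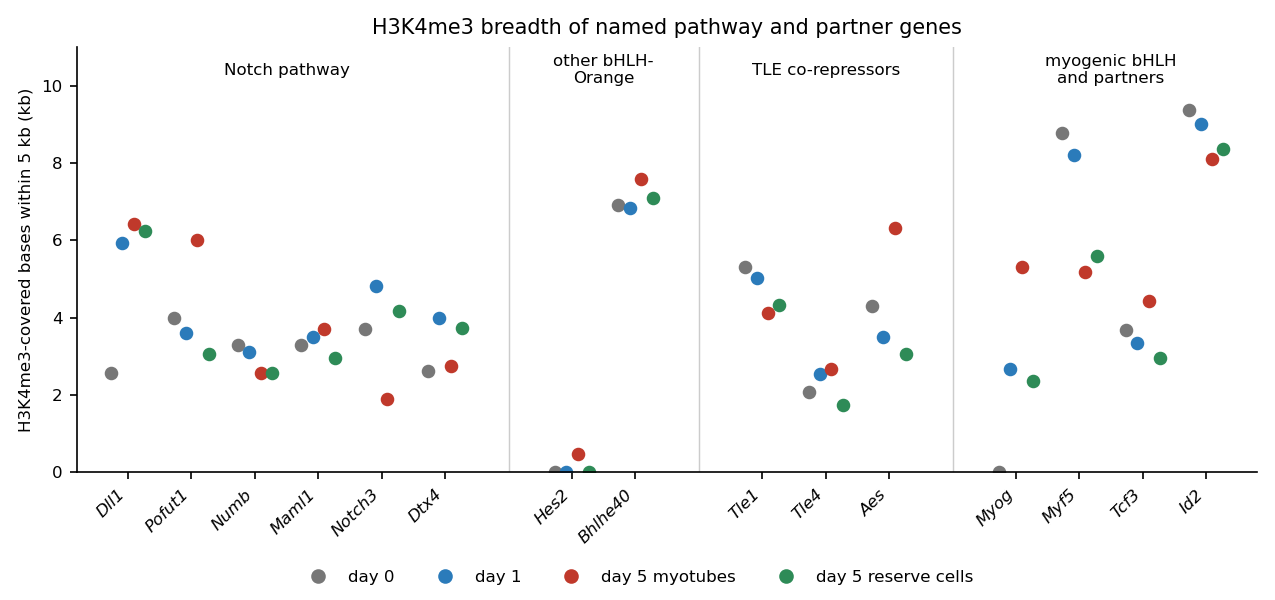
H3K4me3 breadth in kb within 5 kb of the 5′ end for named genes of the Notch pathway, the other bHLH-Orange genes, the TLE co-repressors and the myogenic bHLH factors, with 1 point per library. Notch3 and Dtx4 were chosen after their values were seen. Dll1 is low on day 0 alone, and Myog is at 0 on day 0 and highest in myotubes.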

How the data were processed

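Of 12 samples, the 8 H3K4me3 and MBD2 libraries were used; the 4 IgG samples were not analysed here. Per the submitters' processing notes, the authors used Trim Galore, Bowtie2, SAMtools and MACS2 with mm10; versions, settings and the control sample are not given in these sources. A deposited list holds 1 library's peaks with a pileup (a signal in fragments), a fold enrichment ratio over local background, and −log10 p and −log10 q values whose names are damaged in the file headers and were read by their place. These are the authors' values and serve only within a list. From them, local background was computed as (pileup + 1)/fold − 1. Depth per sample is unknown, so no counting interval can be given. Longer or deeper lists can call more and wider peaks.

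Peaks on the autosomes, X and Y were joined to GENCODE M21 basic starts with Python 3.11.15 and pandas 2.3.3, by code that was tested on simulated peaks. The day 5 titles are abbreviated and were matched to myotubes and to reserve cells through the design text. The members and gene lists were chosen with earlier results of these data known. Named list genes are those that gained or lost promoter H3K4me3, had MBD2 after day 0, or had the 2 highest day 0 MBD2 folds or 2 largest myotube minus day 0 breadth differences of their list. Alternatives varied the promoter, overlap, peak strength, list length, breadth window and transcript set.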

Additional observations from a re-analysis of the deposited data

How the results depend on the processing

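Under 11 alternative settings, 189 of 216 alternative values of the counts and medians lay within 1.5 times the reported value. Most of these were counts of 0 that stayed at 0, so the tally says little about stability. The settings that used the 5′ end alone or breadth around all starts could change no value, because each member has 1 start. Marked members stayed at 6 of 7 in 4 libraries under every promoter, overlap, −log10 q and equal-length setting (15920 H3K4me3 peaks per list), except that Hes7 was not marked on day 1, in myotubes or in reserve cells with a promoter of 500 bp either side. That setting therefore gave 1 loss instead of 0 in each of the 3 comparisons with day 0. With the stronger 50% of each list, Hey2 and Heyl were marked in myotubes alone, so 4, 4, 6 and 4 members were marked in the 4 libraries. This gave 2 gains in myotubes against day 0 and 2 against reserve cells. The myotube list was the longest, with 26034 peaks, and kept the most peaks here, so these gains cannot be read as a stronger mark. The summit pileup on day 0 and in myotubes was 75 and 39 fragments at Hey2, and 25 and 34 at Heyl. The 1 MBD2 call, at Hes6 on day 0, and its loss in the 3 later libraries became 0 with a 500 bp promoter, with an overlap of at least 200 bp, with the stronger 50% of peaks, with a −log10 q of at least 5 and with lists of equal length (111 peaks). It was kept with a 2 kb promoter and with the comprehensive GENCODE set, an alternative added after seeing the data. With a 2 kb breadth window, which is narrower than several domains, the median breadth of members moved to 2338 bp on day 1 and 2350 bp in myotubes. All 5 breadth differences of at least 1.5-fold kept their sign in 30 alternative values, and 1 moved, Heyl on day 1 against day 0, to 992 bp with the 2 kb window, which leaves out its downstream peaks. The 1.5-fold limit was still passed in 29 of those 30 values, and the exception was Heyl in myotubes against reserve cells with a 10 kb breadth window, where the ratio was 0.742 and the call ended. No paired analysis was possible because each group has 1 library, and for the same reason no replicate could be left out. Depth per library is unknown, and what part it had in the calls of weak peaks was not tested.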

Other observations

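Of 34 Notch pathway genes, 4 had, like Heyl, a greater H3K4me3 breadth both on day 1 and in reserve cells than on day 0 and in myotubes. They were chosen after their values were seen and carry no test. The share of all protein-coding genes with this pattern was not computed, so the count is not read as a trait of the pathway. Notch3, a receptor of muscle stem cells, had 3701 bp on day 0, 4825 bp on day 1, 1892 bp in the myotubes and 4157 bp in the reserve cells. Dtx4, a Deltex ubiquitin ligase gene, had 2618, 3985, 2752 and 3732 bp in that order. The differences of day 1 and of reserve cells from day 0 were smaller at Notch2, with 4656, 4929, 4052 and 4821 bp, and at Maml2, with 4713, 4807, 4458 and 4808 bp. Dll1 differed from them in myotubes, where its 6411 bp exceeded the 6230 bp of reserve cells.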
